A study of Mus musculus with 6 samples.

Results

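The 10 genes described here are interferon-inducible GTPases of the mouse: *Gvin1*, a very large inducible GTPase, the guanylate-binding proteins *Gbp2*, *Gbp3*, *Gbp6*, *Gbp7* and *Gbp9*, and the immunity-related GTPases *Irgm1*, *Irgm2*, *Igtp* and *Iigp1*. They were picked by gene symbol, and all 10 were among the 55426 genes of the deposited TPM table. The table holds RNA sequencing of the abdominal aorta, with 1 library per mouse, for 3 *Prdm16*SMKO and 3 control mice, all male and of the C57BL/6J strain. *Prdm16*SMKO mice were *Prdm16* fl/fl *Myh11*-CreERT2, and control mice carried *Myh11*-CreERT2, so that the Cre transgene was common to both groups. All mice received tamoxifen by gavage at 75 mg/kg/day for 5 days when they were 8 to 10 weeks old, and tissue was taken 2 weeks later. CreERT2 driven by *Myh11* acts in smooth muscle cells, whereas the RNA came from the whole vessel wall, including cells in which *Prdm16* was not targeted.

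Interferons bind receptors that signal through JAK kinases to STAT transcription factors, and the resulting complexes bind 2 kinds of DNA element, the GAS element and the ISRE. Inducible GTPases are among the most strongly induced targets of this pathway. Guanylate-binding proteins and effector immunity-related GTPases such as *Iigp1* coat the vacuoles of intracellular pathogens and break them, while the *Irgm1*, *Irgm2* and *Igtp* products sit on host membranes and keep the effector GTPases inactive there. The function of *Gvin1* is little known. In the vessel wall, interferon responses can come from smooth muscle, endothelial and immune cells alike.

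The 10 genes lie on 5 chromosomes of GRCm38 (GENCODE M21 gene models). *Gbp7* (chr3:142530342-142550149), *Gbp3* (chr3:142560026-142573209) and *Gbp2* (chr3:142620602-142638008) follow each other on the plus strand of chromosome 3. *Gbp9* (chr5:105077630-105139539) and *Gbp6* (chr5:105270702-105293698) are on the minus strand of chromosome 5. *Irgm1* (chr11:48861968-48871683, minus strand) stands apart from *Igtp* (chr11:58199556-58207591) and *Irgm2* (chr11:58199618-58222782), whose plus-strand gene models overlap. *Gvin1* occupies chr7:106156556-106215326 on the minus strand, and its longest coding sequence has 2427 codons against 407 to 638 in the other 9 genes.

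Promoter sequences from RefSeq (GRCm38.p6) were matched for 6 of the 10 genes, *Gbp2*, *Gbp3*, *Gbp7*, *Irgm1*, *Irgm2* and *Igtp*. They are shown because they hold the letters that this gene class is known for. Start sites here are those of RefSeq, which differ in part from the GENCODE gene models above. The printed windows of *Irgm1* and *Irgm2* lie inside those models, and those of *Gbp2* and *Gbp3* lie partly inside. The windows of *Gbp7* and *Igtp* lie before the models. Each line gives the 120 bases before the annotated start site, 5′ to 3′ on the gene's strand, and capitals mark every match to the ISRE letters GAAANNGAAA (read as TTTCNNTTTC on the opposite strand) or to the GAS letters TTCNNNGAA, which read the same on both strands.
Gbp2 (chr3:142620543-142620662, plus strand): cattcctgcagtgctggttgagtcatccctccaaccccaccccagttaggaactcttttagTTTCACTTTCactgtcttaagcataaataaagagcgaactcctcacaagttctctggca
Gbp3 (chr3:142559924-142560043, plus strand): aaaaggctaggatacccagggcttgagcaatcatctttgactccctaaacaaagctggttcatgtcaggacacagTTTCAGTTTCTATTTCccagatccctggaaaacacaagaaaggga
Gbp7 (chr3:142530216-142530335, plus strand): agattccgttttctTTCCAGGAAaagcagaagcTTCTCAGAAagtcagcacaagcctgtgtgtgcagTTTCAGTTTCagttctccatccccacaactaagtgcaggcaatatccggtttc
Irgm1 (chr11:48871421-48871540, minus strand): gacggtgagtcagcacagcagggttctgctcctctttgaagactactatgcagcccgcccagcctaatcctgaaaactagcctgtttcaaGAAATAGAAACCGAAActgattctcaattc
Irgm2 (chr11:58214857-58214976, plus strand): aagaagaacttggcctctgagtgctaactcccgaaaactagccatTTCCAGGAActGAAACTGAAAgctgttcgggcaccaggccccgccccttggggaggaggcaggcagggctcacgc
Igtp (chr11:58199436-58199555, plus strand): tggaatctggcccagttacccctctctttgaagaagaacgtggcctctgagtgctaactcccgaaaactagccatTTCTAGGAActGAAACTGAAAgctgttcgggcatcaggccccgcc

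Within 250 bases before and 50 after a start, an ISRE match was present in 6 of the 7 annotated promoters of these 6 genes, against 3.44% of 32851 RefSeq promoters. Counted by gene, 6 of the 6 had a match, against 3.99% of 27025 genes. The promoter without a match was the more downstream of 2 of *Gbp3* and is not printed. A GAS match was present in 3 of the 7 promoters (*Gbp7*, *Igtp* and *Irgm2*), against 8.3% of all promoters. In *Gbp3* and in *Irgm1* the capitals span 2 overlapping ISRE matches, at -45 to -36 and -39 to -30 in *Gbp3* and at -30 to -21 and -24 to -15 in *Irgm1*, counted from the start site. *Igtp* and *Irgm2* carried a GAS match followed after 2 bases by an ISRE match, and the same spacing was found in *Tgtp1*, *Tgtp2* and *Gm12185*, other immunity-related GTPases. In *Gbp7* the GAS and ISRE matches were 25 bases apart. Of 11 other inducible GTPases with a promoter sequence, 8 had an ISRE match and 5 had both motifs. A match describes the letters only and is not evidence of binding.

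**Figure D1:**
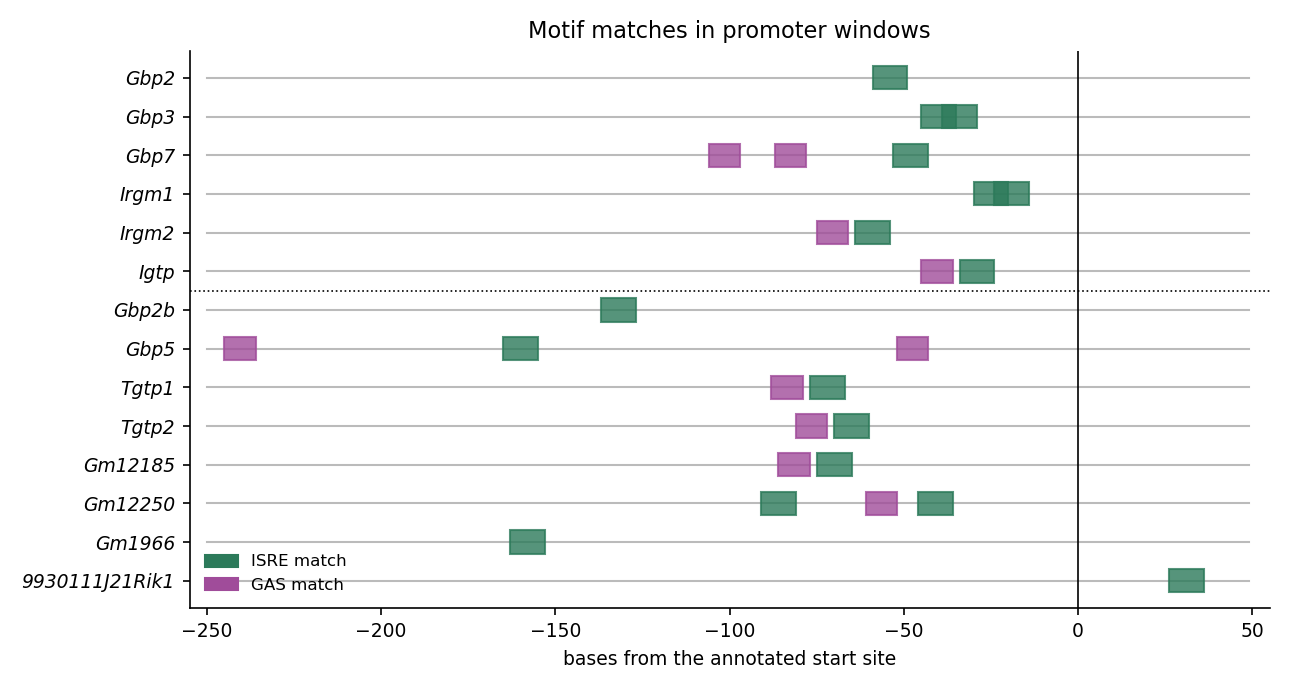
Positions of ISRE and GAS matches, in bases from the annotated start site (x axis), in the promoters of the 6 GTPases with a sequence (above the dotted line) and of the 8 other inducible GTPases with a match (below). Grey lines are the windows searched. The matches of the upper 6 promoters lie between -106 and -15.

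The targeted gene was examined in each library. *Prdm16*, which encodes a zinc finger transcriptional regulator, was at 33.42, 36.83 and 30.77 TPM in the control libraries and at 20.75, 27.67 and 14.77 TPM in the *Prdm16*SMKO libraries. The groups did not overlap, and the log2 fold change of -0.70 (SE 0.225) had an adjusted p of 0.376. Libraries had 20332 to 22100 genes above 0 TPM, mitochondrial genes took 15.8% to 27.4% of the TPM, and 45S ribosomal RNA genes took 15.6% to 31.4% despite poly(A) selection. Log2 fold changes below are *Prdm16*SMKO over control on the log2(TPM + 0.5) scale with their SE, n = 3 per group. A gene was called when the limma p, adjusted by the Benjamini-Hochberg method over the 15775 genes that averaged 0.5 TPM or more, was under 0.05.

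All 10 GTPases passed the expression minimum, and each was higher in every *Prdm16*SMKO library than in any control library. Of all tested genes 7.02% were higher in this way. *Gvin1* rose about 4-fold and was the only 1 of the 10 that was called, where 0.355% of all tested genes were called in either direction. The other 9 had positive log2 fold changes from 0.44 to 1.04 that did not pass adjustment. The summed TPM of the 10 genes was 56.1, 68.0 and 49.4 in the control libraries and 99.8, 124.3 and 100.6 in the *Prdm16*SMKO libraries. In RNA of a whole tissue, more cells of a type and more RNA per cell cannot be told apart. The limma p-values rest on the spread between 3 mice per group, with the variance of each gene drawn toward a trend over all tested genes.

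**Figure D2:**
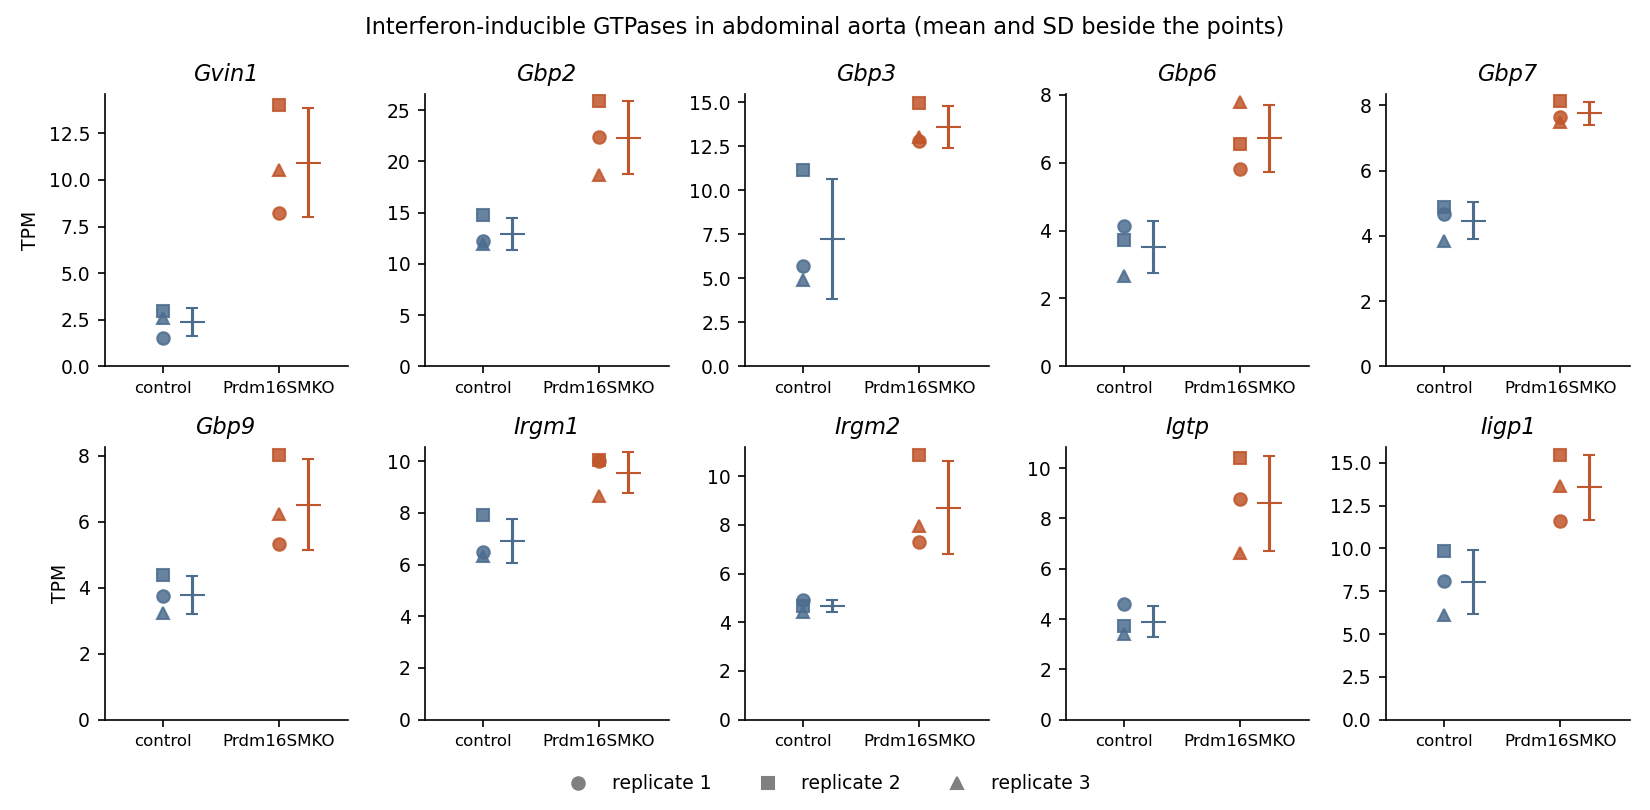
TPM (y axes, each from 0) of the 10 interferon-inducible GTPases in the 3 control (blue) and 3 *Prdm16*SMKO (orange) libraries, with the shape giving the replicate number and the bar beside the points giving mean and SD. In all 10 panels the lowest orange point is above the highest blue point.

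By its own TPM, *Gvin1* was the least abundant of the 10 genes in control aortas. Its control libraries were at 1.54, 2.97 and 2.62 TPM and its *Prdm16*SMKO libraries at 8.20, 14.01 and 10.54 TPM. The lowest knockout library was thus well above the highest control library. The log2 fold change was 1.99 (SE 0.271, 95% interval 1.38 to 2.61) with a limma adjusted p of 0.0265, and the exact two-sided permutation test gave p = 0.1, the smallest that 3 against 3 libraries allow. The call did not hold when any single library other than *Prdm16*SMKO replicate 1 was left out (log2 fold change 1.76 to 2.17 over the 6 fits, adjusted p 0.0217 to 0.114). The share of *Gvin1* in the summed TPM of the 10 genes went from 4.11% in control to 10.1% in *Prdm16*SMKO aortas, and its place in the order of means went from the 10th to the 4th.

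*Gvin1* has close copies beside it, and its reads are hard to assign. Of the 8855 windows of 151 bases, the length of a read, in its transcript, 94.9% are also found in *Gm4070*, a neighbouring copy. *Gm4070* was at 5.37, 3.77 and 6.05 TPM in control and at 9.33, 16.85 and 7.83 TPM in *Prdm16*SMKO libraries (log2 fold change 1.04, limma adjusted p = 0.295). *Gvin1* made up 22.3%, 44.1% and 30.2% of the sum of the pair in the control libraries and 46.8%, 45.4% and 57.4% in the *Prdm16*SMKO libraries, so that the division between the copies varied by library as well. The sum of the pair was 6.91, 6.74 and 8.67 TPM in control and 17.53, 30.86 and 18.37 TPM in *Prdm16*SMKO libraries. Fitted as a single gene, the pair had a log2 fold change of 1.48 and a limma adjusted p of 0.0498. How much of the higher sum belongs to either copy is uncertain. The share and the place of *Gvin1* among the 10 genes depend on the same division. The control mean was 7.44 TPM for the pair and 2.38 TPM for *Gvin1* alone.

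Among the guanylate-binding proteins, *Gbp2* was the most abundant of all 10 genes. It was at 12.20, 14.74 and 11.91 TPM in control libraries and at 22.41, 25.86 and 18.72 TPM in *Prdm16*SMKO libraries, with every knockout library above every control library. Its log2 fold change was 0.76 (SE 0.177, limma unadjusted p = 0.0023, adjusted p = 0.170). *Gbp7*, next to *Gbp3* on chromosome 3, had the tightest knockout values, 7.64, 8.15 and 7.48 TPM against 4.68, 4.89 and 3.83 TPM in control libraries. Its log2 fold change was 0.74 (SE 0.175, adjusted p = 0.176).

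*Gbp3* varied most among controls. Control replicate 2 was at 11.16 TPM, close to the lowest knockout library, while control replicates 1 and 3 were at 5.71 and 4.88 TPM. The *Prdm16*SMKO libraries were at 12.79, 14.94 and 13.01 TPM. The log2 fold change of 0.94 had the largest SE of the 10 genes, 0.280, and an adjusted p of 0.325.

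The chromosome 5 pair was of lower abundance. *Gbp6* was at 4.14, 3.73 and 2.66 TPM in control and 5.81, 6.55 and 7.78 TPM in *Prdm16*SMKO libraries (log2 fold change 0.86, SE 0.216, adjusted p = 0.217). Of its 151-base windows 76.3% are shared with *Gm43302* and 30% with *Gbp10*, so that its values depend on how reads were divided. *Gbp9* was at 3.76, 4.37 and 3.22 TPM in control and 5.31, 8.03 and 6.22 TPM in *Prdm16*SMKO libraries (log2 fold change 0.70, SE 0.213, adjusted p = 0.343). The gene model of *Gbp9* overlaps *Gbp4* and *Gbp8* on the same strand, although it shares no 151-base window with another gene.

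Among the regulatory immunity-related GTPases, *Igtp*, also called Irgm3, had the second-largest fold change of the 10. It was at 4.59, 3.72 and 3.39 TPM in control and 8.78, 10.40 and 6.64 TPM in *Prdm16*SMKO libraries. Its log2 fold change of 1.04 (SE 0.216) had an unadjusted p of 0.0011 and a limma adjusted p of 0.109. *Irgm2* had the narrowest control values, 4.92, 4.67 and 4.41 TPM, and reached 7.29, 10.89 and 7.94 TPM in *Prdm16*SMKO libraries (log2 fold change 0.81, SE 0.196, adjusted p = 0.188). *Igtp* shares 0.801% of its 151-base windows with *Irgm2*.

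*Irgm1*, which besides restraining effector GTPases takes part in autophagy and mitochondrial quality control, differed least. It was at 6.50, 7.90 and 6.32 TPM in control and 9.99, 10.03 and 8.65 TPM in *Prdm16*SMKO libraries, so that the nearest libraries of the groups lay within 1 TPM of each other. The log2 fold change was 0.44 (SE 0.171, 95% interval 0.06 to 0.83, unadjusted p = 0.0295, adjusted p = 0.489). The effector *Iigp1*, or Irga6, on the plus strand of chromosome 18 (chr18:60376027-60392634), was at 8.10, 9.87 and 6.14 TPM in control and 11.62, 15.44 and 13.63 TPM in *Prdm16*SMKO libraries. Its log2 fold change was 0.73 (SE 0.209, adjusted p = 0.295).

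Counted together, 10 of the 10 genes had a positive log2 fold change, against 54.2% of all tested genes. All 10 had a limma unadjusted p under 0.05 with higher values in *Prdm16*SMKO aortas, against 4.88% of tested genes, and 0 had one with lower values, against 3.85%. The groups did not overlap with *Prdm16*SMKO above control in 10 of 10, against 7.02%. The median log2 fold change was 0.79, beside 0.02 over all tested genes. These genes are known to be induced together, and they were measured in the same 6 libraries, so they are not 10 independent observations. They were also chosen with earlier results of these data known, so the shares describe them and are not a test.

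**Figure D3:**
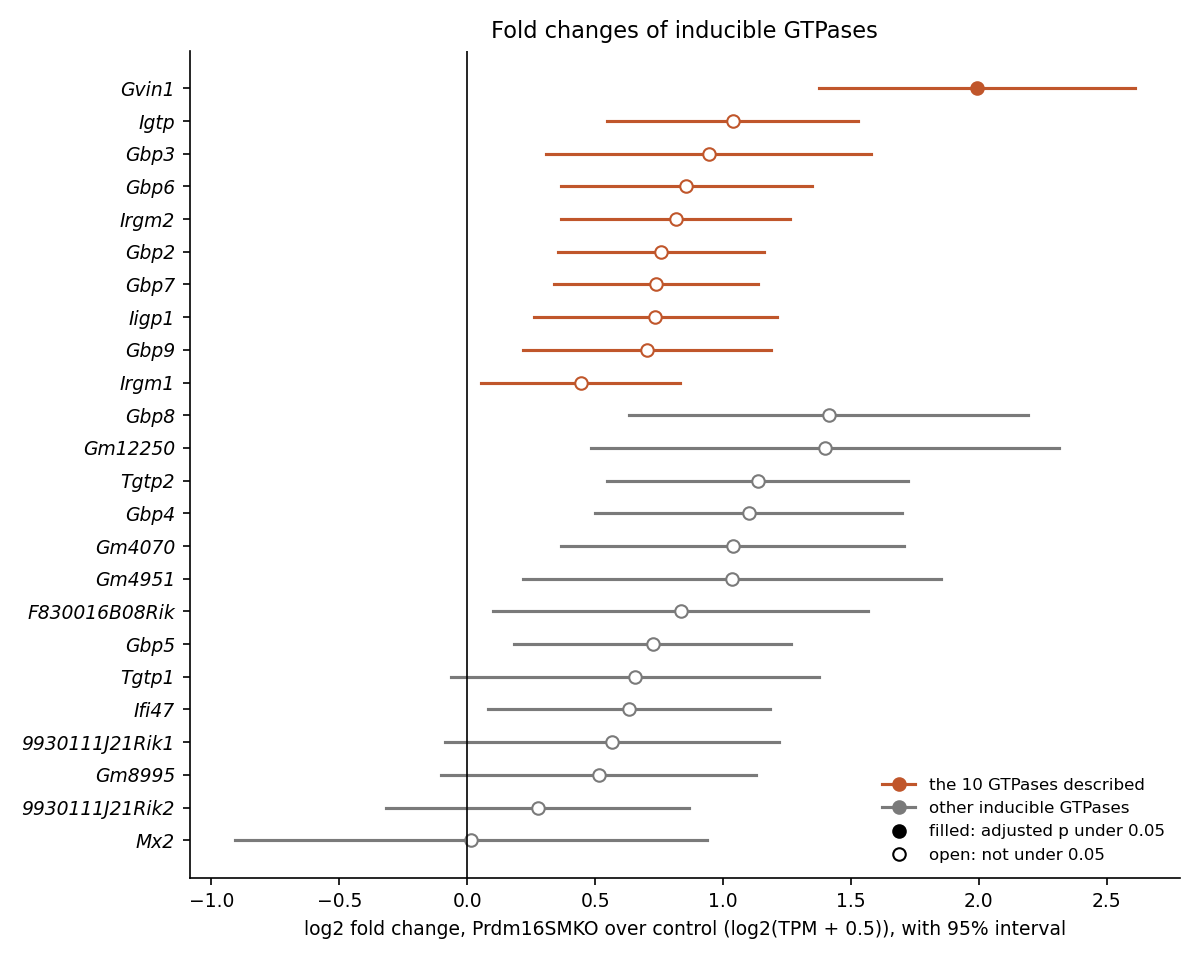
Log2 fold change with its 95% interval (x axis) for the 10 GTPases described (orange) and for 14 other inducible GTPases above the expression minimum (grey). Filled points passed the adjusted p of 0.05, which *Gvin1* alone did, and the intervals of all 10 orange genes lie above 0.

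The 10 genes ranked the libraries of a group much alike. *Prdm16*SMKO replicate 2 was the highest of the 6 libraries for 9 genes, and replicate 3 was the highest for *Gbp6*. Control replicate 3 was the lowest library for 9 genes, and control replicate 1 was the lowest for *Gvin1*. Control replicate 2 was the highest of the controls for 7 genes.

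By mean level in control aortas, per transcript length, *Gbp2* (12.95 ± 1.56 TPM, SD, n = 3) came before *Iigp1* (8.04 ± 1.87), *Gbp3* (7.25 ± 3.41) and *Irgm1* (6.91 ± 0.865). The ranges of *Gbp2* and *Iigp1* did not overlap, while those of *Iigp1*, *Gbp3* and *Irgm1* did. The range of *Irgm1* did not overlap that of the next gene, although the wide range of *Gbp3* did. There followed *Irgm2* (4.67 ± 0.255 TPM), *Gbp7* (4.47 ± 0.561), *Igtp* (3.90 ± 0.620), *Gbp9* (3.78 ± 0.575), *Gbp6* (3.51 ± 0.764) and *Gvin1* (2.38 ± 0.745), each of which overlapped the next in the order. In *Prdm16*SMKO aortas *Gbp2* (22.33 ± 3.57 TPM) was again the highest.

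Other inducible GTPases outside the 10, of the same families except for the dynamin-like *Mx1* and *Mx2*, numbered 23 in the table. Of these, 14 passed the expression minimum, 14 had a positive log2 fold change, 9 had an unadjusted p under 0.05 with higher values in *Prdm16*SMKO aortas, and 0 were called. Their median log2 fold change was 0.78. *Gbp8* had the largest, 1.41, from 0.28, 0.12 and 0.19 TPM in control to 1.69, 1.57 and 0.89 TPM in *Prdm16*SMKO libraries (limma adjusted p = 0.191). *Tgtp2*, an effector immunity-related GTPase, had 1.14 (adjusted p = 0.153), and *Gbp4* had 1.10 (adjusted p = 0.185). *Gm12250* had 1.40, *Gm4951* 1.04, *F830016B08Rik* 0.83, *Gbp5* 0.73 and *Ifi47* 0.63, each with an unadjusted p under 0.05. *Tgtp1* had 0.66, *9930111J21Rik1* 0.57, *Gm8995* 0.51 and *9930111J21Rik2* 0.28, and each of these had an unadjusted p above 0.05. *Mx2*, a type I interferon-induced dynamin-like GTPase, had 0.01 and overlapping groups. Constitutively expressed relatives, such as the atlastin *Atl1*, gave 6 positive values of 7 tested and a median of 0.23. *Atl1* had the largest, 0.68 (adjusted p = 0.747), and 0 of the 7 reached an unadjusted p under 0.05.

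The pathway upstream of these GTPases was read from lists of its parts. Of 10 interferon ligand genes, 8 were at 0 TPM in all 6 libraries, namely *Ifng*, *Ifnb1*, *Ifna1*, *Ifna2*, *Ifna4*, *Ifna5*, *Ifnl2* and *Ifnl3*, and *Ifnk* and *Ifne* did not exceed 0.12 and 0.21 TPM in any library. At an unknown depth per library, low levels of ligand RNA may have been missed. The 9 receptor subunits and JAK kinases had a median log2 fold change of 0.01, with values from -0.34 to 0.19, and 0 had an unadjusted p under 0.05 in either direction. *Ifngr1*, the ligand-binding chain of the interferon gamma receptor, was at 29.40, 32.49 and 27.96 TPM in control and 29.20, 39.20 and 34.73 TPM in *Prdm16*SMKO libraries, with overlap. *Ifnlr1*, of the lambda receptor, had the value of -0.34 (adjusted p = 0.913) at levels under 1 TPM in every library.

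Of 10 STAT and IRF transcription factors 0 were called by limma, 3 had an unadjusted p under 0.05 with higher values in *Prdm16*SMKO aortas, and the median log2 fold change was 0.38. *Irf1*, itself an interferon gamma target, was at 13.04, 11.80 and 11.10 TPM in control and 16.07, 17.46 and 15.92 TPM in *Prdm16*SMKO libraries (log2 fold change 0.45, limma unadjusted p = 0.0168, adjusted p = 0.421). *Irf5*, which is prominent in myeloid cells, had the largest log2 fold change, 0.71 (unadjusted p = 0.0454, adjusted p = 0.556). The groups did not overlap for *Irf1* or for *Irf5*.

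Among 7 inhibitors of the pathway the median was -0.07. The feedback inhibitors *Socs1* and *Socs3* had log2 fold changes of -0.01 and -0.28 with overlapping groups. *Usp18*, an interferon-induced inhibitor of type I receptor signalling, had 0.77 with overlapping groups, and the phosphatase *Ptpn6*, which is abundant in leukocytes, had 0.70 (unadjusted p = 0.0304, adjusted p = 0.494).

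Further targets of interferon had medians near that of the 10 GTPases. In the list of interferon gamma response genes 12 of 13 tested had positive values, 9 had an unadjusted p under 0.05 and higher values, and the median was 0.90. *Psmb8*, a catalytic subunit of the immunoproteasome, rose by a log2 fold change of 1.07 (limma adjusted p = 0.0416), from 14.43, 13.87 and 12.23 TPM to 24.47, 31.94 and 30.56 TPM. *H2-Ab1*, an MHC class II chain, had the largest log2 fold change, 1.38 (unadjusted p = 0.0011, not called). In the type I list 13 of 13 were positive, 8 had an unadjusted p under 0.05 and higher values, and the median was 0.82. *Rtp4*, which encodes a chaperone-like transmembrane protein, rose 2.47-fold (adjusted p = 0.0405), from 2.05, 2.47 and 2.18 TPM to 7.04, 6.51 and 5.27 TPM. *Oasl2*, an antiviral oligoadenylate synthetase-like gene, had the largest log2 fold change, 1.51 (adjusted p = 0.0750). *Psmb8* and *Rtp4* were the only called genes in the 18 lists besides the 10 GTPases. Neither was called when control replicate 1, 2 or 3 or *Prdm16*SMKO replicate 2 or 3 was left out, and without *Prdm16*SMKO replicate 1 *Psmb8* was called and *Rtp4* was not.

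Genes for proteins that act with the GTPases were listed as well. The 13 genes of ATG8 conjugation and ubiquitin tagging, which direct guanylate-binding proteins and immunity-related GTPases to vacuoles, had a median log2 fold change of 0.07. In this list 0 genes reached an unadjusted p under 0.05, and the largest value was 0.41 for the ubiquitin ligase *Trim21*. Of 6 tested inflammasome partners 1 had one with higher values, *Casp1*, the inflammatory caspase (log2 fold change 0.84, limma adjusted p = 0.266), and the median was 0.32.

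**Figure D4:**
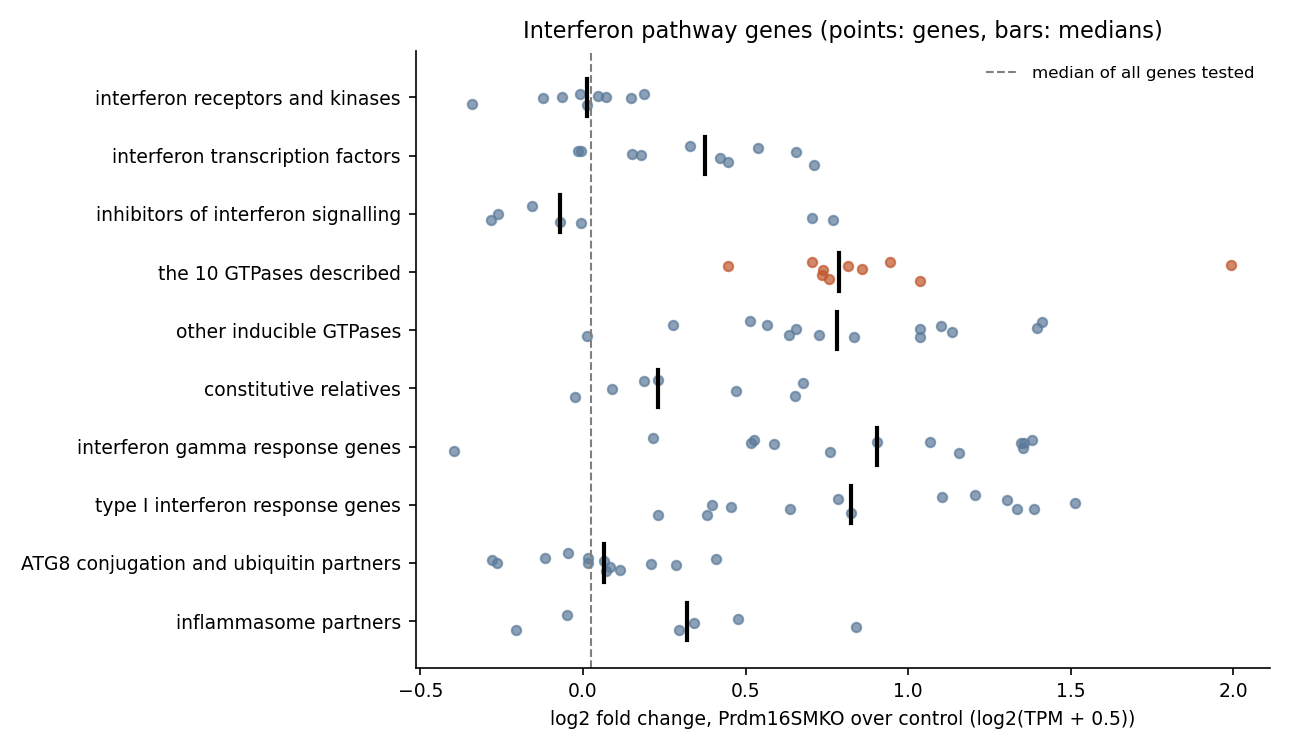
Log2 fold change (x axis) of each tested gene in lists of the interferon pathway, with black bars at list medians and a dashed line at the median of all tested genes, 0.02. The medians of both GTPase lists and both response lists lie between 0.78 and 0.90, whereas those of receptors and kinases, inhibitors and ATG8 partners lie between -0.07 and 0.07.

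The genes that share an ISRE match in their promoter were also read across the table. Leaving out the 10 GTPases, 399 tested genes had an ISRE match, of which 10.5% had an unadjusted p under 0.05 with higher values in *Prdm16*SMKO aortas, and their median log2 fold change was 0.08. Among 10456 tested genes with a promoter but no ISRE match these were 4.49% and 0.02. Of 887 genes with a GAS match 4.28% had such a p, and of 61 genes with both motifs 16.4%. Relatives of the 10 GTPases stayed in these sets, among them *Gbp5*, *Tgtp1*, *Tgtp2* and *Gm12250*, which have both motifs. Of these relatives *Gbp5*, *Tgtp2* and *Gm12250* had such a p and *Tgtp1* did not. The 6 GTPases with a printed promoter had log2 fold changes of 0.44 to 1.04. These shares were not tested against each other.

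Genes next to the GTPases were compared to see whether whole loci differed. Inducible GTPases were left out by gene symbol, which kept *Gm43802*, a gene that overlaps *Gbp7* and shares windows with it. Within 1 Mb of the loci, the median log2 fold change of the remaining tested genes was -0.04 around *Gvin1* (19 genes). It was -0.001 around *Gbp2*, *Gbp3* and *Gbp7* (7 genes) and 0.08 around *Gbp6* and *Gbp9* (11 genes). It was -0.01 around *Irgm1* (15 genes), 0.03 around *Igtp* and *Irgm2* (31 genes) and 0.01 around *Iigp1* (19 genes). None of these neighbours was called. A limma unadjusted p under 0.05 with higher values was found for 1 gene around *Gbp2*, *Gbp3* and *Gbp7*. The same held for 2 around *Gbp6* and *Gbp9*, 1 around *Gvin1*, 1 around *Iigp1* and 0 around the other loci, against 4.88% of tested genes. Log2 fold changes around *Gbp2*, *Gbp3* and *Gbp7* ran from -0.81 to 1.34. *Cd74*, the invariant chain of MHC class II and a neighbour of *Iigp1*, had a log2 fold change of 1.35 and a limma adjusted p of 0.0906.

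By likeness of profile, the genes closest to *Gvin1* over the 6 libraries, among 9669 genes averaging 5 TPM or more from which those in the lists were left out, were *H2-Q6*, *Ptpn18* and *H2-Q7*, followed by *Ankrd1* and *Rbp7*. Likeness was the mean absolute difference of log2 values after centring each gene on its mean, and it ran from 0.247 for *H2-Q6* to 0.383 for *Rbp7*. *H2-Q6* and *H2-Q7*, non-classical MHC class I genes, were 3.24-fold and 3.34-fold higher in *Prdm16*SMKO aortas. Since the profile of *Gvin1* is mostly a difference between the groups, genes chosen for likeness to it differ between the groups by that choice, and the same holds for the median profile. Closest to the median profile of the 10 genes were *Mamdc2*, *Lgals9*, *H2-K1*, *Marcks* and *Plat*, at 0.066 to 0.083. *H2-K1*, a classical MHC class I gene, was at 181.89, 174.36 and 158.57 TPM in control and 296.18, 364.84 and 319.32 TPM in *Prdm16*SMKO libraries, a log2 fold change of 0.92.

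Markers of other cell types were read in the same libraries. Of 10 macrophage markers, 9 had positive log2 fold changes, 5 an unadjusted p under 0.05 and higher values, and 0 were called, with a median of 0.71. Their summed TPM was 98.2, 78.7 and 63.0 in control and 95.4, 179.3 and 135.9 in *Prdm16*SMKO libraries. The sums of the groups overlapped, and *Prdm16*SMKO replicate 2 was the highest, as for the GTPases. By single marker, *Ptprc*, *Cd68* and *C1qa* were higher in every *Prdm16*SMKO library than in any control library. These were 3 of 10, against 7.02% of tested genes, and 0 were lower in the same way. *Lyz2*, the most abundant of the list, was at 48.12 TPM in control replicate 1 and 42.58 TPM in *Prdm16*SMKO replicate 1. The largest log2 fold change was that of the pan-leukocyte marker *Ptprc*, 1.06 (adjusted p = 0.449). No macrophage marker was at 0 in all libraries. The macrophage sum of *Prdm16*SMKO replicate 1 lay below that of control replicate 1 and above those of control replicates 2 and 3. Its GTPase sum was 99.8 TPM, against 56.1, 68.0 and 49.4 TPM in the control libraries. Without *Prdm16*SMKO replicate 2 the median of the macrophage markers was 0.50 and that of the 10 GTPases was 0.68. The part of macrophages in the GTPase values was not tested.

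The 10 T and NK cell markers summed to 3.83, 1.10 and 0.71 TPM in control and 7.12, 5.01 and 6.33 TPM in *Prdm16*SMKO libraries, without overlap. Only *Lck* (log2 fold change 1.10, adjusted p = 0.356) and *Trac* (0.86, adjusted p = 0.749) passed the expression minimum, and *Nkg7* was at 0 in all 3 control libraries and in *Prdm16*SMKO replicate 3. B cell markers summed to 3.52 to 11.99 TPM in control and 8.04 to 13.88 TPM in *Prdm16*SMKO libraries, and dendritic cell markers to 6.48 to 10.49 and 9.48 to 11.94 TPM. The largest log2 fold changes in these lists were 0.98 for *Cd79a* and 0.34 for *Zbtb46*, neither of which reached an unadjusted p under 0.05. The part of these cells in the GTPase values was not tested.

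Cells of the vessel wall were also compared. Endothelial markers were positive in 7 of 8 (median 0.35), with summed TPM of 196.5 to 259.1 in control and 225.0 to 440.2 in *Prdm16*SMKO libraries, and *Vwf* had the largest value, 0.90 (unadjusted p = 0.0187, adjusted p = 0.435). *Erg*, an endothelial transcription factor, went the other way at -0.50, with every *Prdm16*SMKO library below every control library (unadjusted p = 0.0127, adjusted p = 0.376). The defining markers of vascular smooth muscle were abundant in every library, summing to 14917 to 25276 TPM in control and 11513 to 17648 TPM in *Prdm16*SMKO libraries, with 6 of 8 negative and a median log2 fold change of -0.39. The values ran from -0.53 in *Smtn* (adjusted p = 0.540) to 0.51 in *Des* (adjusted p = 0.546). Of the 8 fibroblast markers 5 were positive and 3 negative, with a median of 0.06 and values from -0.54 in *Col1a1* (adjusted p = 0.447) to 0.51 in *Dpt* (adjusted p = 0.627). All 7 adipocyte markers were positive (median 0.99, *Lep* the largest at 1.21 with an adjusted p of 0.531). Their sum was highest in *Prdm16*SMKO replicate 3, which came to 3883 TPM against 757 to 1568 TPM in the other 5 libraries. Without that library the adipocyte median was 0.32 and the median of the 10 GTPases was 0.82. The part of these cells in the GTPase values was not tested.

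**Figure D5:**
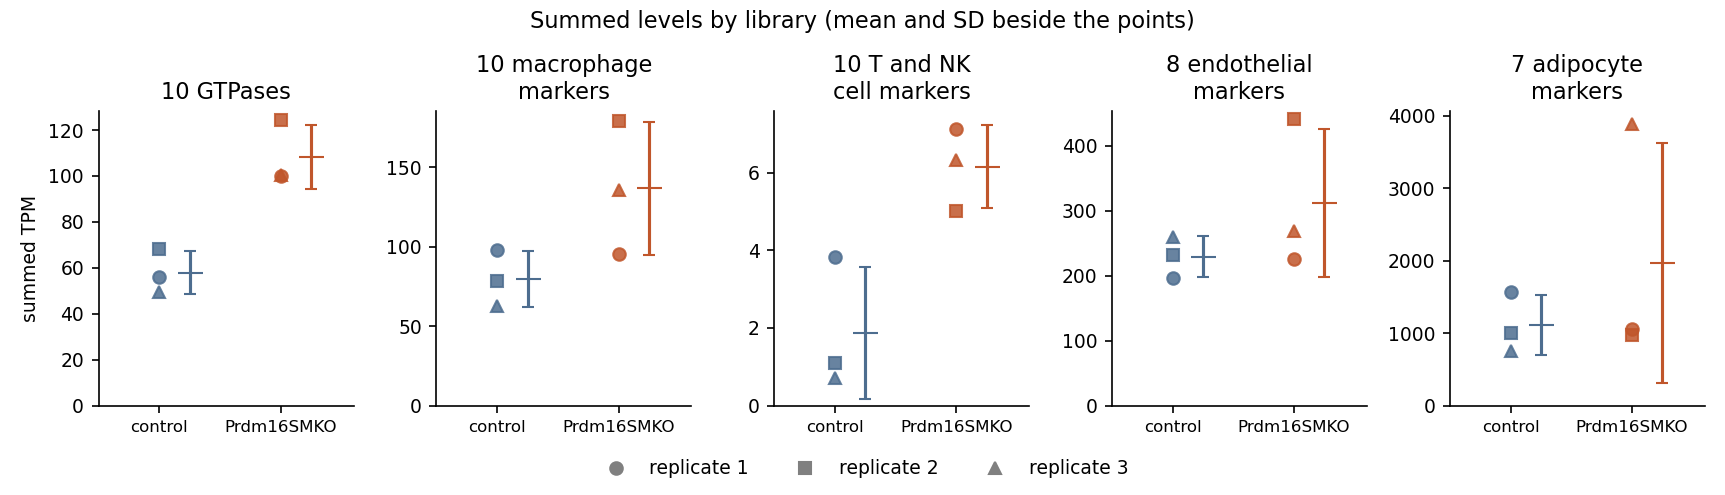
Summed TPM (y axes, each from 0) of the 10 GTPases and of marker lists of 4 cell types in the 3 control (blue) and 3 *Prdm16*SMKO (orange) libraries, with mean and SD beside the points and the shape giving the replicate number. The groups are apart for the GTPases and for T and NK cell markers and overlap for macrophage, endothelial and adipocyte markers.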

How the data were processed

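The members and the gene lists were chosen with earlier results of these data known. Total RNA of the abdominal aorta was selected for poly(A) and read as pairs of 151 bp, at an average of 40 M pairs per library per the labels. The authors deposited TPM values, a unit that divides by transcript length and gives each library an equal total, so the depth of a library and its counting error are unknown. The submitters' processing notes name GRCm38, bcl2fastq, cutadapt 2.3, FastQC 0.11.8, STAR 2.7.8a, RSEM 1.3.3 and MultiQC 1.7. How reads shared between gene copies were divided was therefore decided upstream of the table.

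Here, log2(TPM + 0.5) of the 15775 genes averaging 0.5 TPM or more was fitted with limma 3.58.1 in R 4.3.3 (trended variances, equal weights), with two-sided p-values and Benjamini-Hochberg adjustment over all 15775. Groups came from the sample labels. Single genes also had an exact permutation test, whose smallest p is 0.1. Simulated data with known changes were used to test the fit. Positions and read-length windows used GENCODE M21, and promoters came from RefSeq (GRCm38.p6). The text names all 10 members, their tested relatives, some ligands, receptors and IRF factors, in each other list the called genes and the largest fold change, and the 5 genes most like *Gvin1* and the members' median. *Cd74*, *Socs1*, *Socs3*, *Ptpn6*, *Trac*, *Nkg7*, *Erg*, *Des* and *Dpt* fall outside this rule. So do the macrophage markers *Cd68*, *Lyz2* and *C1qa*, and *Gm43302*, *Gbp10* and *Gm43802*, which share windows with members. All of these were picked with their values in view. The fit was repeated under 17 alternatives, and the sum of *Gvin1* and *Gm4070* was added after seeing the data. Tables and figures were made in Python 3.11.15.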

Additional observations from a re-analysis of the deposited data

How the results depend on the processing

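All 10 GTPases kept a positive log2 fold change under each of the 18 alternatives, 9 or 10 of them kept an unadjusted p under 0.05, and their median log2 fold change was between 0.68 and 0.88. How many were called varied. It was 1 in the reported fit, 3 with median-of-ratios size factors (*Gvin1*, *Gbp2* and *Gbp7*), 7 with array weights, 0 with no expression minimum, 0 with no variance trend, and 0 to 1 when a library was left out. The called genes in the other lists, 2 in the reported fit, were 4, 15, 0 and 0 under the same settings and 0 to 3 when a library was left out. The adjusted p of *Gvin1* ran from 0.0028 with array weights to 0.138 with no expression minimum, and its log2 fold change from 1.48 for the sum with *Gm4070* to 2.42. Over all genes, 29 were called higher and 27 lower in the reported fit, against 60 and 93 with size factors, 46 and 83 with quantile normalization and 277 and 217 with array weights. The cause of these differences was not tested. With a block for the replicate number, 0 of the 10 GTPases and 0 genes of the other lists were called and the adjusted p of *Gvin1* was 0.0772. The labels do not say whether equal numbers mark a pair. Correlations of same-numbered libraries were -0.13, -0.11 and 0.02, and those of differently numbered libraries ran from -0.17 to 0.24. These are correlations of deviations from means of 3 libraries, and they cannot decide whether the libraries were paired. TPM keeps no read depth, so no limit of detection could be given for the ligands or for other genes listed at 0.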
